A study of Mus musculus with 8 samples.

Results

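The replication-dependent histone genes are the protein-coding genes whose symbols start with Hist1h, Hist2h, Hist3h or Hist4h in GENCODE M21 on GRCm38. They numbered 67 of 21938 protein-coding genes. By position, 54 lay in the Hist1 cluster on chromosome 13, 10 in Hist2 on chromosome 3, 2 in Hist3 on chromosome 11 and 1, Hist4h4, on chromosome 6. By protein, 6 encode the linker histone H1, 18 encode H2A, 18 encode H2B, 12 encode H3 and 13 encode H4. 5-hydroxymethylcytosine (5-hmC), the oxidized form of methylated cytosine that TET enzymes make, was mapped around these genes by hMeDIP-seq, in which sheared DNA is pulled down with an antibody against 5-hmC and sequenced. The DNA came from pro-B cells, sorted as B220+CD43+IgM- cells from the bone marrow of C57BL/6 mice aged 4 to 6 weeks. The HDAC7-deficient group (2 libraries) came from Hdac7 fl/- mice with mb1-Cre, a Cre inserted into the Cd79a locus and therefore active in the B lineage. Littermates with an Hdac7+/- genotype, called wild-type, gave the other group (2 libraries), so that a null allele of Hdac7 was present in both groups. Nothing states whether the littermates carried Cre or whether DNA of several mice was pooled.

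Replication-dependent histone genes supply the core and linker histones that package newly copied DNA, and they are transcribed mainly in S phase. They are short and mostly lack introns, and they sit in clusters with many near-identical copies. Their mRNAs are the known exception among metazoan mRNAs in ending not in a poly(A) tail but in a conserved stem-loop, which the stem-loop binding protein SLBP recognizes. Pro-B cells pass through bursts of proliferation, in which these genes are in use.

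The stem-loop was searched for in GRCm38 as 6 paired bases on each side of a loop of 4 bases downstream of the stop codon, as a check that the symbols name genes of this kind. It was found in 65 of the 67 genes, at a median of 30 bases after the stop codon (range 21 to 58), and was not matched in Hist1h2an and Hist2h2be. The 65 stem-loops had 8 forms, of which the most common occurred in 41 genes and the next in 9 genes, while 8 genes, all encoding H4, shared the third. These 3 forms are shown with 5 genomic bases on either side, in the sense of the gene, with the paired bases in capitals.
Hist3h2a: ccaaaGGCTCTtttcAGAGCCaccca
Hist1h1t: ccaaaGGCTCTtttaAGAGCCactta
Hist1h4d: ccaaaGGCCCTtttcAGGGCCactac

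Each deposited list gives the start and end of the peaks of 1 library, with no height, score or read count. A peak is therefore either present or absent, and the depth behind it is unknown. The lists held between 1305200 and 1414862 peaks with a median width of 146 to 172 bp. HDAC7-deficient replicate 2 stood apart on chromosomes 14 to 19 and X, where it held 1.18 to 2.05 times the mean peak bases of the other libraries, whereas the ratio was 1.01 to 1.06 on chromosomes 1 to 13, which hold all 67 genes. Identity markers of the sorted cells and the deletion of Hdac7 are matters of RNA or reads and could not be checked on peak positions. For each gene a window was taken from 2 kb upstream to 2 kb downstream of the annotated gene, and 2 measures were made in it: the number of peaks and the number of bases under a peak (peak bases). The windows of 61 of the 67 genes overlapped that of another member, so neighbours share peaks and are not independent. Merged, they made 26 stretches of 260535 bp in all. With 2 libraries per genotype, a two-sided exact permutation test of 1 value per library cannot give a p below 0.33, and an exact sign-flip test over 4 libraries cannot give one below 0.13. No difference could therefore pass a threshold of 0.05, and the spread between libraries is given with every difference.

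The histone gene windows were covered by 5-hmC peaks to a smaller share than those of other genes. Values for the 4 libraries are given in the order wild-type 1, wild-type 2, HDAC7-deficient 1, HDAC7-deficient 2 wherever a sentence does not name them. Peaks covered 5.91%, 7.66%, 6.25% and 6.94% of the histone gene windows and 9.25%, 10.5%, 9.01% and 10.4% of the windows of all protein-coding genes. The histone genes were lower in 4 of 4 libraries, at 0.682 ± 0.0379 (SD, n = 4) of the share of all protein-coding genes (exact sign-flip test, p = 0.13). Short genes were closer: the 1256 other protein-coding genes with a single exon were covered at 7.31% to 9.10%, and the histone genes reached 0.817 ± 0.0391 (SD, n = 4) of that, again lower in 4 of 4 libraries (exact sign-flip test, p = 0.13). The median histone gene had 50.4 peak bases per kb of window as the mean of the 4 libraries, against 77.2 for the other single-exon genes and 97.2 for all protein-coding genes.

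The low coverage was centred on the start of the genes and the bases just after it. The median gene is 539 bp long, so the 500 bp after a start site take in most of such a gene. Of the 67 start sites, 49 (73.1%) were CpG-rich, that is, the 1 kb around them had a GC content over 50% and a ratio of observed to expected CpG over 0.6, compared with 44.3% of the other protein-coding genes. Within 500 bp of these 49 start sites peaks covered 1.11%, 2.97%, 1.66% and 2.01% of the bases. At the CpG-rich start sites of 9684 other genes the shares were 9.17%, 10.7%, 10.1% and 8.32%. Coverage at the histone genes was thus 0.201 ± 0.0708 (SD, n = 4) of that at the other CpG-rich start sites and lower in 4 of 4 libraries (exact sign-flip test, p = 0.13). Counted by gene, 34 of the 49 (69.4%) had no peak base within 500 bp of the start site in any library, against 19.6% of the other 9684 genes. None of the 49 had such a peak in all 4 libraries, whereas 17% of the others did. These start-site and coding-sequence comparisons, and that of the windows with the other single-exon genes, were added after a first look at the data.

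**Figure D1:**
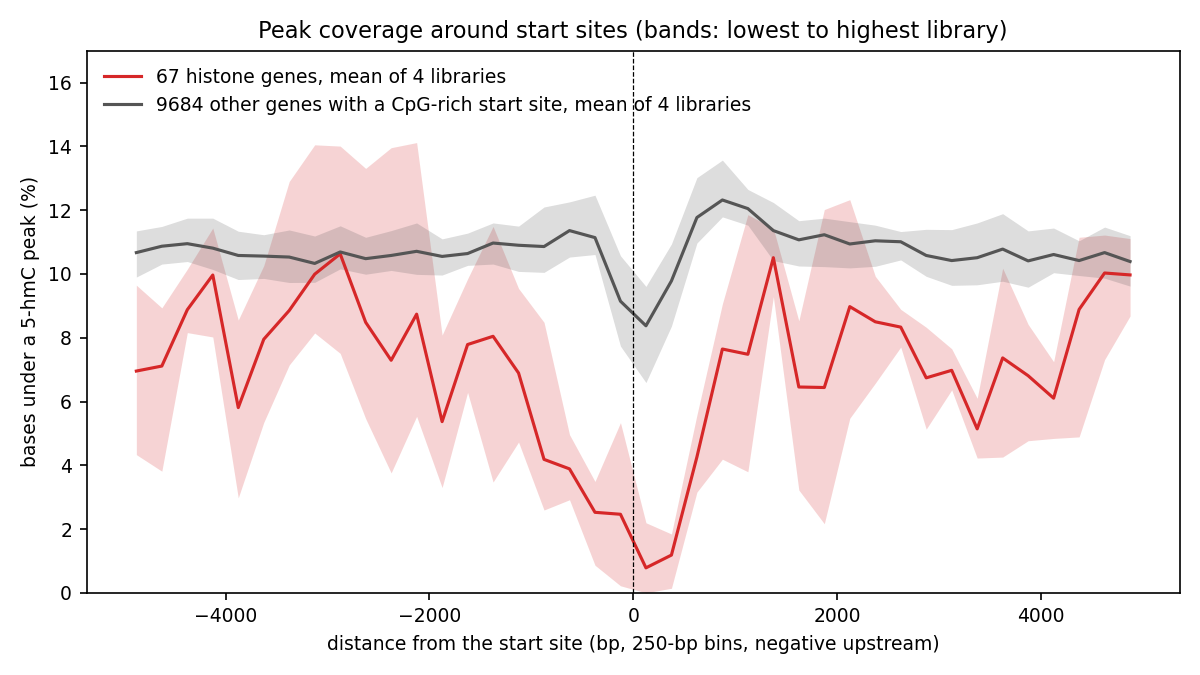
Share of bases under a 5-hmC peak (vertical axis, %) against the distance from the start site (horizontal axis, bp, negative upstream, bins of 250 bp) for the 67 histone genes (red) and 9684 other genes with a CpG-rich start site (grey). Lines are means of the 4 libraries and bands run from the lowest to the highest library; the red line falls to 0.784% in the first bin after the start site, where the grey line is at 8.38%.

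In the profile of coverage around the start site the histone genes were at 2.46% in the 250 bp before it, 0.784% in the next 250 bp and 1.18% in the 250 bp after those, as means of the 4 libraries. The highest library in these bins was at 5.34%, 2.20% and 1.85%. The other genes with a CpG-rich start site also dipped there, but only to 8.38%, and their lowest library stayed at 6.60%. This profile took all 67 histone genes, with a CpG-rich start site or not. All other protein-coding genes were at 9.34% in the first bin after the start site. From 500 to 1000 bp downstream the histone genes rose through 4.26% to 7.65%, against 11.8% and 12.3% in the other genes, and from there to 5 kb their bins varied between 5.14% and 10.5%.

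The coding sequence itself was nearly free of peaks. It overlaps the start-site windows above, so these results share bases and are not independent. Of 26841 coding bases, 0.235%, 2.94%, 0.682% and 1.22% lay under a peak. The coding sequence of the other protein-coding genes was covered at 7.50%, 9.76%, 7.48% and 8.83%, and that of the other single-exon genes at 5.94%, 9.28%, 6.43% and 8.14%. The histone share was 0.141 ± 0.116 (SD, n = 4) of that of all other coding sequence, lower in 4 of 4 libraries (exact sign-flip test, p = 0.13). Without wild-type replicate 2, the library with the highest value, it was 0.0870. A peak touched the coding sequence of 1, 6, 2 and 3 genes. Over all libraries 11 genes were touched, 10 of them in a single library, and the exception was the linker histone gene Hist1h1b, with 30 coding peak bases in wild-type replicate 2 and 58 in HDAC7-deficient replicate 2. Touched genes were not counted among the other protein-coding genes, so nothing particular to the histone genes is read from these counts. The histone coding sequence is rich in the dinucleotide that carries the mark. It held 9.63 CpG per 100 bp, against 2.89 in other coding sequence.

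**Figure D2:**
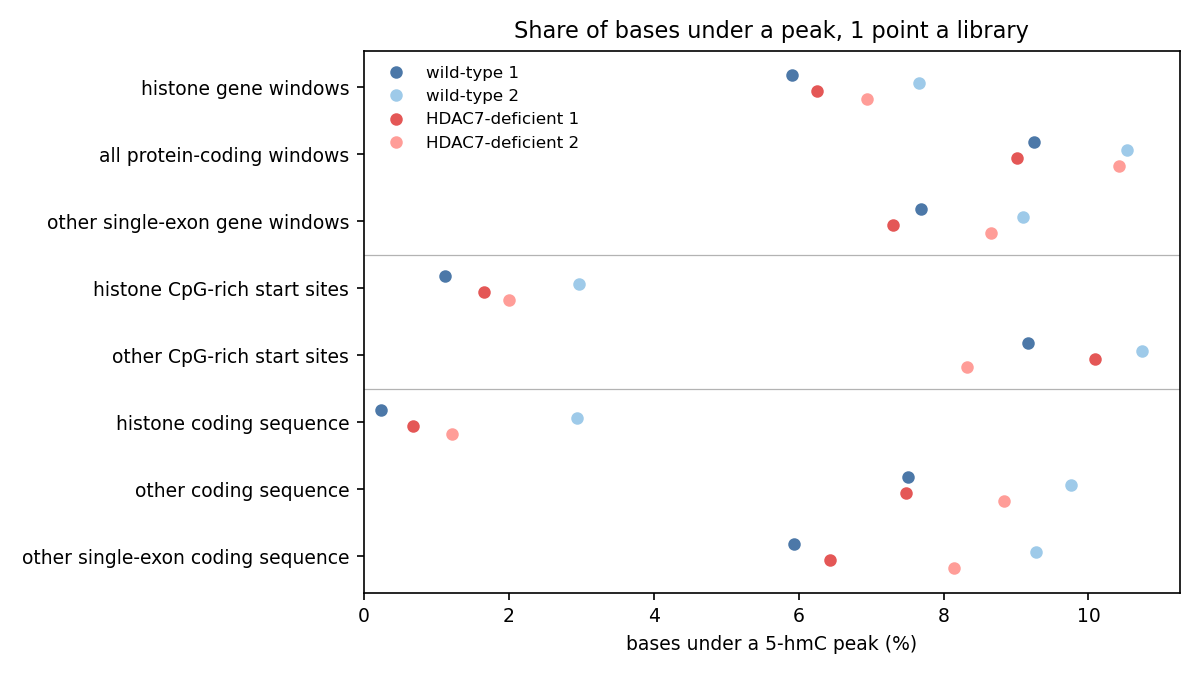
Share of bases under a 5-hmC peak (horizontal axis, %) in the histone gene windows, CpG-rich start sites and coding sequence and in the matching sets of other genes (rows); each point is 1 library. In every set of the histone genes the 4 points lie to the left of that library's point in the other sets of the same block.

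Within the windows the peaks lay in the CpG-poor part. The peak bases of the 4 libraries held 1.31 to 1.35 CpG per 100 bp, while the window bases outside them held 2.29 to 2.31. Over all protein-coding windows the corresponding ranges were 0.970 to 1.05 under peaks and 0.994 to 1.00 outside. Soft-masked sequence, which marks interspersed and simple repeats, made up 20% of the histone gene windows and 26.0% to 30.9% of their peak bases.

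Histone genes are near-copies of each other, so a short read from a repeated stretch can match more than 1 place. Nothing states how reads of that kind were handled, and the length of 50 bases used here was a choice of this comparison. The 50 bases starting at a window position occurred again elsewhere in the genome for a median of 12.8% of positions per histone gene. Pooled over the merged histone gene windows the share was 16.3%, against 7.20% of 552267 positions sampled in all protein-coding windows. Peaks covered 1.59% of the repeated positions as the mean of the 4 libraries and 7.68% of the positions whose 50 bases occurred once. Repeated positions made up 58.0% of the coding sequence. Among the unrepeated coding positions the covered share was 0%, 5.53%, 0.620% and 1.21%. Restricted likewise, the CpG-rich start sites were covered at 1.90%, 4.41%, 2.35% and 2.60%, which was 0.291 ± 0.0917 (SD, n = 4) of the share at all positions of the other CpG-rich start sites. The reference sets were not restricted in this way. How much of the low coverage comes with repeated sequence was not tested beyond these values.

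**Figure D3:**
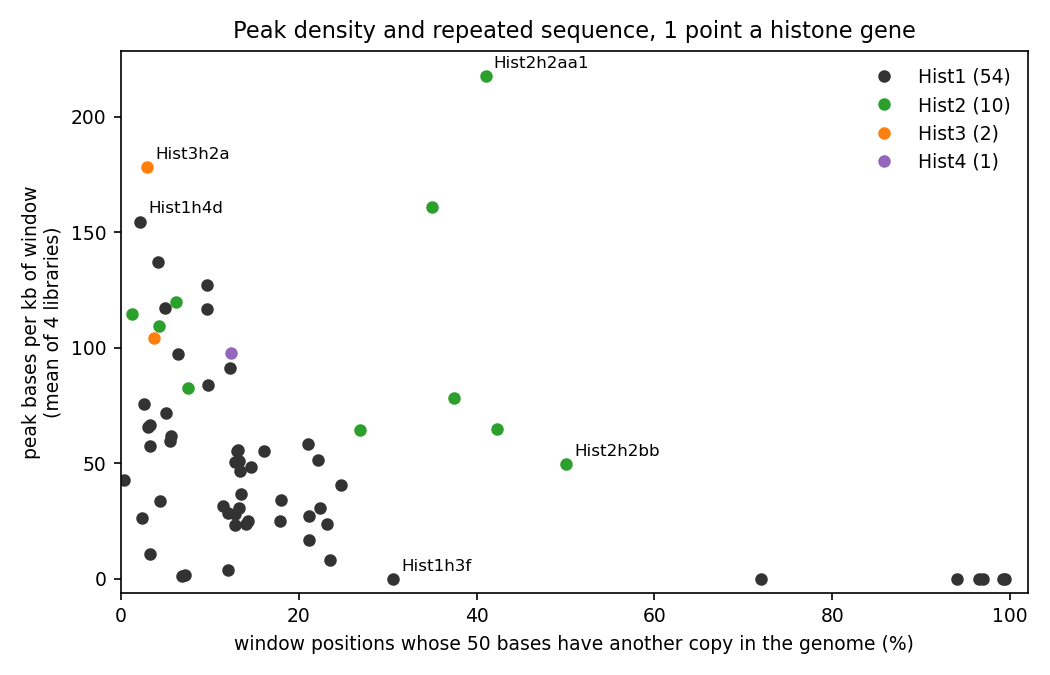
Peak bases per kb of window as the mean of the 4 libraries (vertical axis) against the percentage of window positions whose 50 bases have another copy in the genome (horizontal axis); each point is 1 histone gene and colours give the cluster. The 6 genes over 70% lie at 0, as does Hist1h3f at 30.5%. Hist2 genes between 26.8% and 50.1% range from 49.6 to 218, counting peaks in repeated and unrepeated positions of the window alike.

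The 7 genes with no peak in any library fell into 2 places of the Hist1 cluster. Of these, 6 make up an inverted duplication on chromosome 13, in which chr13:21804612-21812409 (Hist1h2bq, Hist1h2ao and Hist1h4m) and chr13:21831532-21839330 (Hist1h4n, Hist1h2ap and Hist1h2br) aligned over 7799 bp at 99.974% identity. Between 72.0% and 99.5% of their window positions were repeated. Hist1h3f, an H3 gene with 30.5% repeated positions, was the other, and an inverted stretch of 1798 bp at 97.2% identity links it to Hist1h3e. Hist1h3e itself had 386 and 364 peak bases in wild-type against 35 and 0 in HDAC7-deficient pro-B cells. A second duplication lay in windows that were not empty. In Hist2 the pairs Hist2h3c2 and Hist2h2aa2 and Hist2h2aa1 and Hist2h3c1 lie in an inverted duplication of 2112 bp at 99.574% identity, and the peaks of these genes were mostly outside it: 1 peak was inside the first copy, in wild-type replicate 1, and the second copy held 1 in wild-type replicate 1 and 1 in HDAC7-deficient replicate 2.

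**Figure D4:**
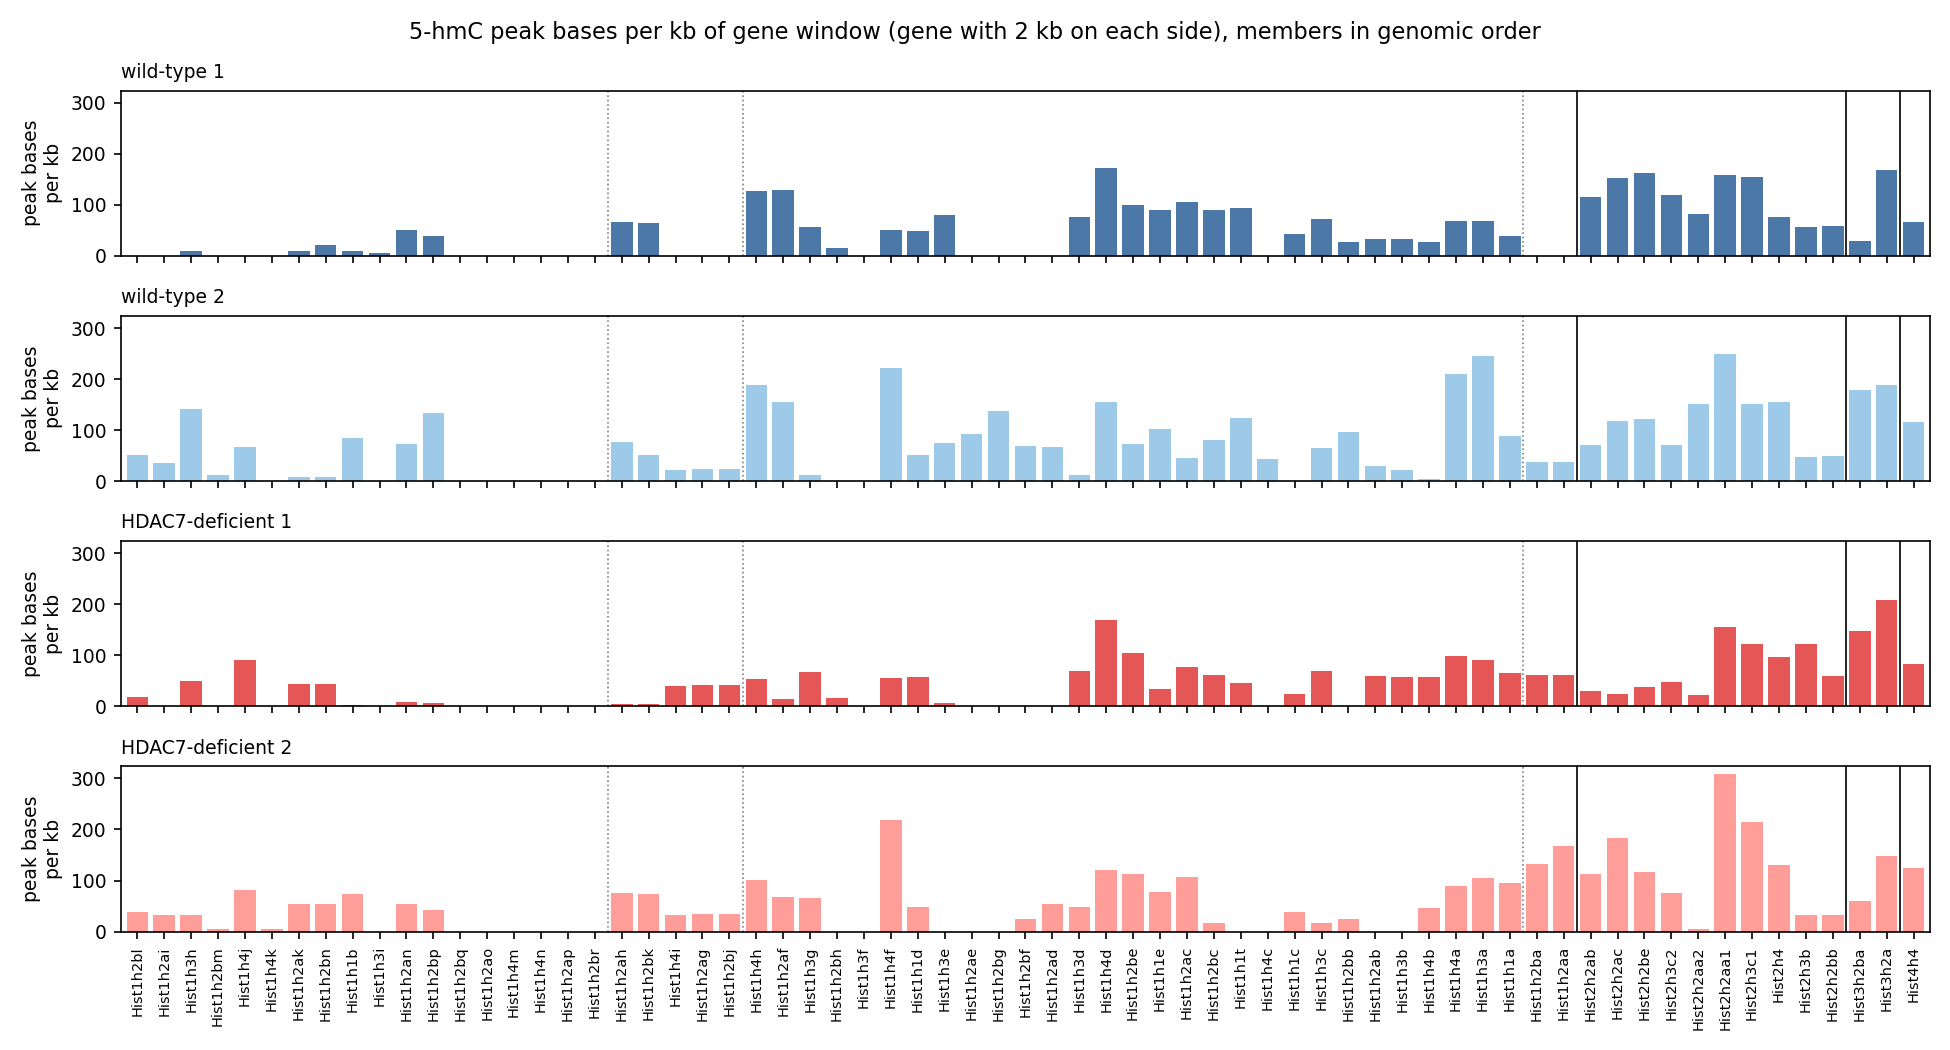
Peak bases per kb of gene window (vertical axis) for the 67 histone genes in genomic order within the clusters Hist1, Hist2, Hist3 and Hist4 (solid lines) in each of the 4 libraries (panels); dotted lines mark gaps over 100 kb in Hist1. The 6 genes from Hist1h2bq to Hist1h2br and Hist1h3f have no bar in any panel, and the highest bar is Hist2h2aa1 in HDAC7-deficient replicate 2.

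Coverage was higher in Hist2 than in Hist1. Peaks covered 4.71%, 6.05%, 5.14% and 5.77% of the Hist1 windows and 12%, 13.8%, 9.08% and 12.1% of the Hist2 windows. Hist2 was higher in 4 of 4 libraries, by 1.77 to 2.55 times (exact sign-flip test, p = 0.13). This comparison of coverage was not among the planned ones, and its p was not adjusted. Within Hist1 the genes fall into stretches separated by over 100 kb. The stretch of 18 genes from Hist1h2bl to Hist1h2br, which includes the duplicated block, was covered at 0.766%, 4.23%, 1.74% and 2.79%, and the stretch of 29 genes from Hist1h4h to Hist1h1a at 6.72%, 7.11%, 6.84% and 6.83%. The second was higher in 4 of 4 libraries, and its libraries differed little among themselves. This pair of stretches was not planned as a comparison, so no p is given for it. The stretch from Hist1h2ah to Hist1h2bj was at 2.36%, 3.65%, 1.70% and 3.98%. That from Hist1h2ba to Hist1h2aa was at 0%, 3.21%, 5.28% and 14.5%.

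By histone type the median gene had 58.5 peak bases per kb for H1, 51.2 for H2A, 35.5 for H2B, 53.6 for H3 and 59.9 for H4, with ranges that overlapped throughout. Among the small clusters Hist2h2aa1 (chr3:96245497-96246082), an H2A gene, had the highest density of the 67 genes, with 218 peak bases per kb as the mean of the 4 libraries. Its window held 726 and 1141 peak bases in wild-type against 709 and 1416 in HDAC7-deficient pro-B cells, and the genotypes overlapped. Its twin Hist2h2aa2 had 376 and 685 in wild-type against 97 and 19 in HDAC7-deficient libraries, and the genotypes did not overlap. The H3 gene Hist2h3c1 had 905, 879, 709 and 1256 peak bases, with peaks in the gene itself in every library, and Hist2h3c2 had 596, 358, 243 and 375. The H4 gene Hist2h4 was at 425, 876, 545 and 736, with overlapping genotypes. The H2A genes Hist2h2ab and Hist2h2ac are neighbours and share part of their windows: the first had 517 and 318 peak bases in wild-type against 135 and 498 in HDAC7-deficient pro-B cells, the second 690, 536, 111 and 831. In both, HDAC7-deficient replicate 1 was the lowest library. Hist2h3b (H3) was at 254, 213, 545 and 142 and Hist2h2bb (H2B) at 254, 213, 261 and 142, sharing most of the same peaks. In Hist3 the H2A gene Hist3h2a had 1036 and 1157 peak bases in wild-type against 1282 and 907 in HDAC7-deficient pro-B cells, which made it the second densest gene at 178 per kb, and the H2B gene Hist3h2ba had 139, 828, 685 and 275. Hist4h4, which encodes H4, had 456, 795, 569 and 861. In Hist3h2ba the spread between replicates was larger than the difference between the genotype means.

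In Hist1 the 5 densest genes were Hist1h4d, Hist1h4f, Hist1h3a, Hist1h4h and Hist1h4a, of which 4 encode H4 and Hist1h3a encodes H3. Hist1h4d, at 155 peak bases per kb, had 887 and 799 peak bases in wild-type against 873 and 617 in HDAC7-deficient pro-B cells, and the genotypes overlapped. Hist1h4f had 225, 975, 248 and 963, splitting by replicate number rather than by genotype. Hist1h3a and Hist1h4a are neighbours and had 308, 1114, 412 and 474 and 308, 954, 451 and 404 peak bases. Hist1h4h was at 568 and 838 in wild-type and at 236 and 451 in HDAC7-deficient libraries, without overlap in this measure. By the same measure the 5 lowest genes were at 0 and belong to the 7 genes without a peak.

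A peak inside the annotated gene in all 4 libraries was found in 9 of the 67 genes, and 42 genes had none there in any library. These counts were not made over other genes, so they show nothing particular to the histone genes. The 9 were Hist3h2a, Hist1h2bp, Hist1h1d, Hist1h4d, Hist1h2be, Hist1h2bc, Hist2h2be, Hist2h3c1 and Hist4h4, with annotated lengths of 1138 to 37455 bp against a median of 539 bp over the 67 genes. Their peaks sat beyond the coding sequence: apart from 59 bases in Hist3h2a in HDAC7-deficient replicate 1 and 25 bases in Hist4h4 in wild-type replicate 2, no coding base of the 9 was covered. The gene model of Hist1h2be, an H2B gene, spans 37455 bp and alone held 21 and 15 peaks in wild-type against 26 and 27 in HDAC7-deficient pro-B cells. Hist1h2bc, another H2B gene with a model of 8710 bp, held 2, 4, 3 and 1, the linker histone gene Hist1h1d 3, 2, 3 and 1, and the H2B gene Hist1h2bp 1, 1, 2 and 3. Over all 67 genes the annotated bodies and the flanks outside them differed by less than the spread between libraries: bodies at 6.33%, 5.59%, 6.11% and 7.62%, flanks at 5.60%, 9.19%, 6.36% and 6.45%, a ratio of 0.971 ± 0.259 (SD, n = 4), lower in the body in 2 of 4 libraries (exact sign-flip test, p = 0.875). Against flanks of 10 kb the ratio was 0.738 ± 0.138 (SD, n = 4; exact sign-flip test, p = 0.13). The Hist1h2be model alone makes up 37455 of the 110580 bp of merged gene bodies. With the coding span in place of the annotated gene, the body share was 0.204 of the flank share (SD 0.0890, n = 4; exact sign-flip test, p = 0.13).

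Peaks of the 4 lists that shared at least 1 bp were merged into regions to see which places carried signal in every library. The histone gene windows held 231 regions. Of these 25 (10.8%) had a peak in all 4 libraries, 32 (13.9%) in 3 libraries and 142 (61.5%) in 1 library alone. The shares over all protein-coding windows were 11.8%, 15.5% and 54.4%. The 5 widest regions present in every library were chr13:23532357-23533149 (793 bp, nearest to Hist1h2af), chr13:23550049-23550835 (787 bp, 1206 bp downstream of the Hist1h4f start site), chr3:96264411-96265081 (671 bp, at -1435 bp from the Hist2h4 start site), chr13:23548724-23549349 (626 bp, 2611 bp downstream of Hist1h4f) and chr11:58955395-58956010 (616 bp, 1018 bp downstream of the Hist3h2a start site). The first held 568 and 680 peak bases in wild-type against 59 and 300 in HDAC7-deficient pro-B cells, and the others overlapped between the genotypes. None of the 5 had its centre within 1 kb of a start site.

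The longest stretches covered by a peak in all 4 libraries at once mark where the lists matched best, and the sequences of the 5 longest are given from GRCm38, plus strand, with each CpG in capitals. This choice was made with the values in view. The stretch near Hist3h2a is chr11:58956865-58957108, 2302 bp downstream of its start site and inside the gene Trim17, outside exons. The stretch near Hist1h2ac is chr13:23680951-23681144, 2900 bp downstream. The third, chr13:23603936-23604118, lies in the long gene model of Hist1h2be, outside exons. The fourth, chr3:96264457-96264631, is at -1233 bp from the Hist2h4 start site, in an exon of Gm38227, with no coding sequence annotated in the stretch. The fifth, chr3:96248583-96248755, lies 1984 bp downstream of the Hist2h3c1 start site, outside annotated genes.
Hist3h2a stretch: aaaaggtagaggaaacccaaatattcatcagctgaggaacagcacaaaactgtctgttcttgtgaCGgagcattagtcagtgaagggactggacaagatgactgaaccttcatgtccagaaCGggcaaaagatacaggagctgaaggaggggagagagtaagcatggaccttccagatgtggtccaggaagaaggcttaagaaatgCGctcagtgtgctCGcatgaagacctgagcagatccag
Hist1h2ac stretch: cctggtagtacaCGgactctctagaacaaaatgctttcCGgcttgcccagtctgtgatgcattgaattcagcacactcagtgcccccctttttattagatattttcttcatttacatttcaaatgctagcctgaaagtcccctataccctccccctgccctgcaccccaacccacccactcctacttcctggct
Hist1h2be stretch: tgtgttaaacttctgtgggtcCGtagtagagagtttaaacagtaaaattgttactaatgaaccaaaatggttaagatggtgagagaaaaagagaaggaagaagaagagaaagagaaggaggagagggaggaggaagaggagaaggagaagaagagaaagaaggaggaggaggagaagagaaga
Hist2h4 stretch: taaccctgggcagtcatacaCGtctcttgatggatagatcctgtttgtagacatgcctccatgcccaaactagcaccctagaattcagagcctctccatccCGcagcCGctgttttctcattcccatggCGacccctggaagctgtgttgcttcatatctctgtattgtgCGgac
Hist2h3c1 stretch: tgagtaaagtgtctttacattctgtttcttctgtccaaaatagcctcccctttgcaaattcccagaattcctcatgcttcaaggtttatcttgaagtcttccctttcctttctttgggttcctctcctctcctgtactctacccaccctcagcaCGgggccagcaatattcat
They held 4, 2, 1, 5 and 1 CpG in 244, 194, 183, 175 and 173 bp. Where all 4 libraries shared a peak, 41.0% of the bases were soft-masked, and the Hist1h2be stretch ends in a purine-rich run of short repeated units.

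Histone promoters are known for TATA boxes, for CCAAT boxes bound by NF-Y and, in H2A and H2B genes, for an octamer bound by the POU factors OCT1 and OCT2. The 250 bases upstream of the start site were taken from RefSeq (GRCm38.p6) for the 62 genes that matched, and searched on both strands for the TATA box as the letters TATAAA, for the CCAAT box by its name and for the octamer as ATTTGCAT. CCAAT was in 51 of the 62 (82.3%), against 33.8% of the 32851 promoters of the same length in the table, and in 6 of 6 H1, 18 of 18 H2A, 16 of 16 H2B, 8 of 10 H3 and 3 of 12 H4 promoters. TATAAA was in 29 (46.8%, against 12.4%). The octamer was in 13 (21%, against 1.6%), of which 7 were H2A and 6 H2B promoters. These matches are letters in a window and show no binding. A 5-hmC peak touched 1, 6, 2 and 5 of the 62 promoters in the 4 libraries, in the order given above. That made 9 promoters in all, of which none had a peak in more than 2 libraries. The same counts were not made over all 32851 promoters, so nothing particular to the histone genes is read from them. Hist1h4i alone had a peak in each HDAC7-deficient library and in no wild-type library, and its promoter is shown for that reason. Its wider window held 0 and 106 peak bases in wild-type against 190 and 155 in HDAC7-deficient pro-B cells. Beside it is the promoter of Hist1h2bb, which holds the 3 motifs and had no peak in any library. The promoters are chr13:22041363-22041612 (Hist1h4i, minus strand) and chr13:23746484-23746733 (Hist1h2bb, plus strand), printed in the sense of the gene with matches in capitals.
Hist1h4i promoter: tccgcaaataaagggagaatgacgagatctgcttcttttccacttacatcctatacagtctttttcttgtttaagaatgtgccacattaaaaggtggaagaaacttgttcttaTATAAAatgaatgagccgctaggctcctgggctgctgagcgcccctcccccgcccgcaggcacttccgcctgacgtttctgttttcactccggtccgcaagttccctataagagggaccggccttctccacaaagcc
Hist1h2bb promoter: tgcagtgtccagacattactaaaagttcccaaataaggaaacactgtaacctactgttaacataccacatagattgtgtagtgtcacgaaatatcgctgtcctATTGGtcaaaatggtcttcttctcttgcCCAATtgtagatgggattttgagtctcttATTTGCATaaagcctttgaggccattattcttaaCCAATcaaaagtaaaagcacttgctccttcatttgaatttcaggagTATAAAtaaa

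The comparison of genotypes asked whether loss of HDAC7 changed 5-hmC at these genes. The windows held 104 and 106 peaks in wild-type against 112 and 113 in HDAC7-deficient pro-B cells. The groups did not overlap, and the ratio of HDAC7-deficient to wild-type was 1.07 ± 0.0159 (SD, n = 2 per group; exact permutation test, p = 0.33). The extra peaks did not go with more covered bases. Peak bases were 15405 and 19963 in wild-type against 16285 and 18093 in HDAC7-deficient pro-B cells, a ratio of 0.972 ± 0.191 (SD, n = 2 per group; exact permutation test, p = 1), so the spread between the wild-type replicates was larger than the difference. When only peaks at least 200 bp wide were counted, the ratio of peaks was 0.855. Over all protein-coding windows the ratios were 1.01 ± 0.0608 for peaks and 0.982 ± 0.135 for peak bases (SD, n = 2 per group).

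By cluster, the higher number of peaks was in Hist1, with 63 and 66 peaks in wild-type against 72 and 83 in HDAC7-deficient pro-B cells (ratio 1.20 ± 0.127, SD, n = 2 per group; exact permutation test, p = 0.33, adjusted p = 1 over the 9 sets of clusters and types). With peaks at least 200 bp wide the Hist1 ratio turned to 0.906, and that of Hist2 was 0.524. Hist2 had 30 and 25 in wild-type against 26 and 21 (ratio 0.855 ± 0.169, SD, n = 2 per group; exact permutation test, p = 0.667, adjusted p = 1). The difference between the clusters was itself tested as the number of Hist1 peaks per Hist2 peak, which was 2.10 and 2.64 in wild-type against 2.77 and 3.95 in HDAC7-deficient pro-B cells (exact permutation test, p = 0.33). Hist1 peak bases did not follow its peaks, at 9917 and 12742 in wild-type against 10830 and 12151 in HDAC7-deficient pro-B cells. Hist3 held 7, 10, 10 and 4 peaks and Hist4 held 4, 5, 4 and 5, with overlapping genotypes in both.

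By histone type, peak bases were lower in both HDAC7-deficient libraries at the H3 genes, with 3662 and 4068 in wild-type against 3423 and 3021 in HDAC7-deficient pro-B cells (ratio 0.834 ± 0.0961, SD, n = 2 per group), and at the H1 genes, with 2017 and 2628 against 1529 and 2016 (ratio 0.763 ± 0.205, SD, n = 2 per group). Both had an exact permutation p of 0.33 and an adjusted p of 1, and at the H1 genes the nearest libraries of the groups were 1 base apart. H2B genes had 47 and 49 peaks in wild-type against 50 and 50 in HDAC7-deficient pro-B cells. The other types overlapped in both measures: H2A genes held 30, 37, 31 and 35 peaks and H4 genes 20, 28, 27 and 32.

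**Figure D5:**
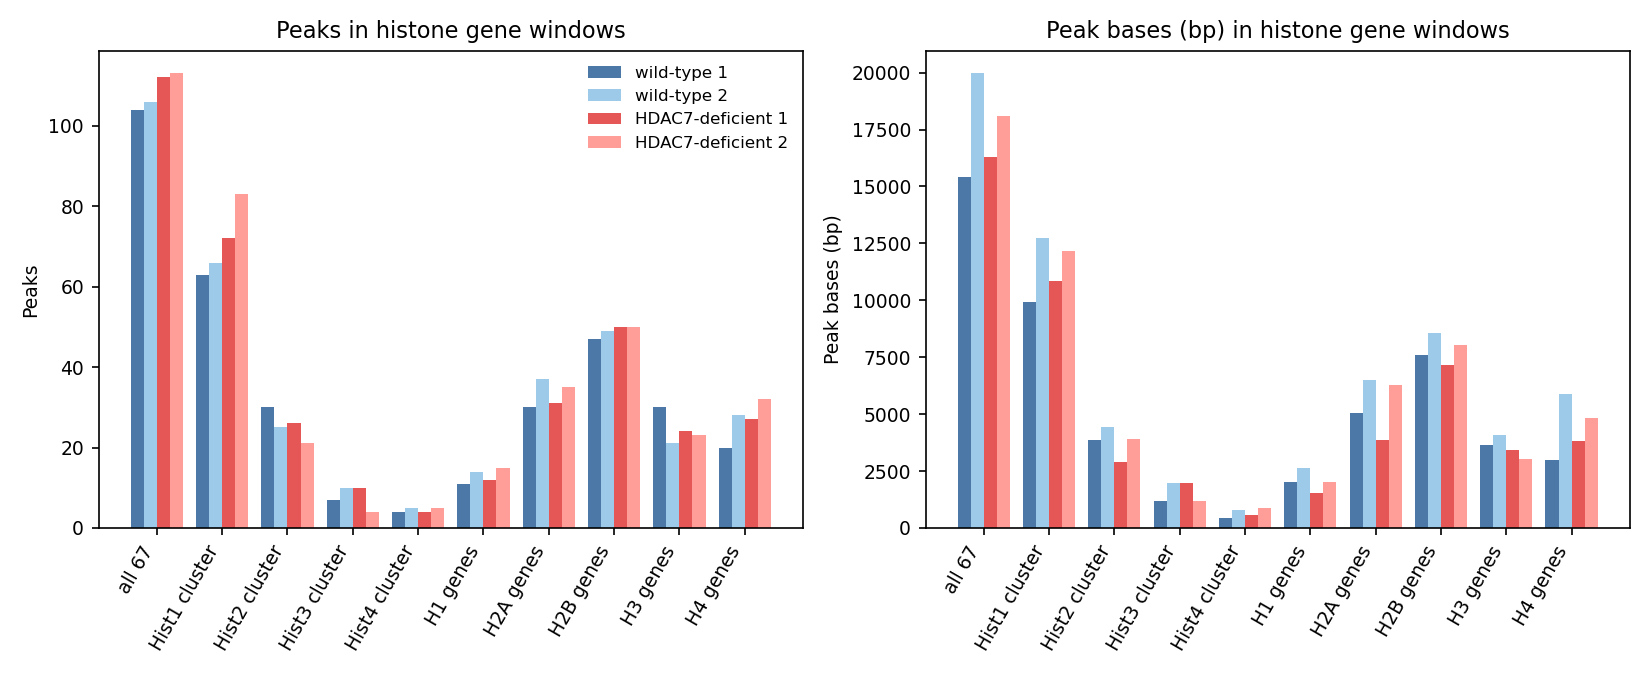
Peaks (left, number) and peak bases (right, bp) in the merged windows of all 67 histone genes, of the 4 clusters and of the 5 histone types (horizontal axis) in each library (bars). For peaks both HDAC7-deficient bars stand above both wild-type bars in all 67, in Hist1 and in H2B, and for peak bases in no set.

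Gene by gene, 2 of the 67 histone genes (2.99%) had peak counts in the HDAC7-deficient group that all exceeded those in the wild-type group, where 11.4% of all protein-coding genes and 6.85% of the other single-exon genes did. Fewer peaks without overlap were seen in 4 (5.97%, against 10.6% and 9.08%). More peak bases without overlap were seen in 11 (16.4%, against 10.3% and 9.87%), and fewer in 9 (13.4%, against 17.1% and 14.8%). For peaks the members separated less often than the background in both directions. Their windows held few peaks, with medians of 1, 2, 1 and 2. The medians were 12 or 13 over all protein-coding genes and 2 or 3 over the other single-exon genes. Low counts tie more easily, and the part of this in the shares was not tested. For peak bases the members' shares lay above the background where HDAC7-deficient libraries were higher and below it where they were lower. These differences in share were not tested, and nothing particular to the members is read from them. Neighbours can be counted for 1 shared peak: Hist1h4i, Hist1h2ag and Hist1h2bj, all among the 11, had the same 0, 106, 190 and 155 peak bases.

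In 4 genes the genotypes did not overlap in either measure, with both in the same direction. Values were higher after loss of HDAC7 in 1 gene (1.49%, against 4.06% of all protein-coding genes and 2.71% of the other single-exon genes). They were lower in 3 genes (4.48%, against 5.59% and 5.18%). With so few genes, nothing is read from the shares. Hist1h2be (chr13:23583670-23621124) was higher in HDAC7-deficient libraries, with 23 and 18 peaks in wild-type against 28 and 28 in HDAC7-deficient pro-B cells and with 4164 and 3021 against 4308 and 4671 peak bases. Its lead over the nearest wild-type library was 5 peaks, all from a window of 41455 bp. Hist1h1t (chr13:23695814-23696725), the testis-specific linker histone gene, was lower, with 2 and 3 peaks against 1 and 0 and with 464 and 604 peak bases against 225 and 0. Hist2h2be (chr3:96221119-96223738), an H2B gene, had 7 and 4 peaks against 2 and 3, and 1070 and 805 peak bases against 253 and 770, so HDAC7-deficient replicate 2 was close to wild-type. Hist2h2aa2 (chr3:96239749-96240276) had 4 and 6 peaks against 1 and 1. The testis-specific pair Hist1h2ba (H2B) and Hist1h2aa (H2A), named after their values were seen, stood out in HDAC7-deficient replicate 2: their joint window was covered at 0% and 3.21% in wild-type and at 5.28% and 14.5% in HDAC7-deficient libraries.

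Few regions followed the genotype. In the histone gene windows 3 of 231 regions (1.30%) had peaks after loss of HDAC7 alone, in each replicate, against 2.82% over all protein-coding windows, and 5 (2.16%) had the opposite pattern, against 2.5%. The 3 lay inside the Hist1h2be gene model and nearest to Hist1h1a and Hist3h2a. Of the 5, 2 lay at Hist2h2be, at 1700 and 2392 bp downstream of its start site, 1 inside the Hist1h2be gene model, and the others were nearest to Hist1h1a and Hist3h2ba.

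Genes that act on the histone genes were compared in the same way from lists of known factors, again beside the shares over all protein-coding genes of 11.4% with more and 10.6% with fewer peaks and of 10.3% with more and 17.1% with fewer peak bases. Of 8 genes of histone gene transcription, 1 separated with more peaks after loss of HDAC7 and 2 had more and 2 fewer peak bases. The gene that separated in both measures was Hinfp, the zinc-finger activator of H4 genes, with 9 and 5 peaks in wild-type against 10 and 11, and with 963 and 911 peak bases against 2371 and 1530. Npat, the coactivator at histone locus bodies, had 2847, 3312, 2024 and 3474 peak bases. Of 9 genes of histone mRNA 3′ processing none separated in peaks, 1 had more and 2 had fewer peak bases, and Slbp was at 865, 1677, 1492 and 1596. Of 11 genes of replication-independent histones, which are expressed outside S phase as well, 2 had more and 1 fewer peaks and 2 had more and 3 fewer peak bases. Nothing particular to the lists is read from such small counts. H3f3a, which encodes H3.3, was higher with 939 and 949 peak bases in wild-type against 1419 and 1776, and H1f0, a linker histone gene of non-dividing cells, was lower with 372 and 695 against 341 and 298. Pooled, the windows of these 11 genes were 7.89% to 11.5% under peaks, above the 5.91% to 7.66% of the replication-dependent genes. The long gene H2afy alone gave 9025, 7504, 5981 and 8299 of the pooled 20407, 23696, 16213 and 21589 peak bases. Gene lengths were not matched in this comparison. Hdac7 had 9903, 8064, 6652 and 8973 peak bases and Tet2, which encodes a 5-hmC-producing enzyme, had 6953 and 6549 in wild-type against 6410 and 5186, with 45, 30, 47 and 32 peaks. H1f0 and Hdac7 lie on chromosome 15, where HDAC7-deficient replicate 2 held 1.23 times the mean peak bases of the other libraries, and the part of this in their values was not tested.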

How the data were processed

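The data were 4 hMeDIP-seq peak lists, 2 wild-type and 2 HDAC7-deficient. The input libraries were not analysed here. The authors trimmed reads with Cutadapt 1.6, run through Trim Galore 0.4.2. The methods name bwa as the aligner and the submitters' processing notes name Bowtie2; the build was mm10 (GRCm38). Duplicates were removed, signal was normalized to RPKM with deepTools and MACS2 bdgpeakcall called peaks in each library at a signal cutoff of 250, keeping those of at least 10 bp and joining gaps up to 10 bp. Peaks meeting input peaks were removed, and whether this preceded deposit is not stated. The deposited values are positions alone, so depth is unknown and no counting interval is given. A read-based test could not be run.

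Peaks were counted where they shared 1 bp with a window, in pandas 2.3.3 and NumPy 2.4.6 under Python 3.11.15. Overlapping windows were merged within a set. Genotype ratios divide group means and carry the propagated replicate SD, coverage ratios are means of per-library ratios, and tests were two-sided exact permutation or sign-flip tests by enumeration, with Benjamini-Hochberg adjustment over 9 sets per measure and over the 9 paired comparisons of coverage, where every p of 0.13 became 0.141 and that of 0.875 stayed. Duplicated sequence was found with blastn 2.17.0+. The counting code was tested on simulated peak lists.

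The genes and lists were chosen with earlier results of these data known. Named were all Hist2, Hist3 and Hist4 genes, the 5 densest and 5 lowest Hist1 genes (ties by symbol), genes whose genotypes did not overlap in both measures, genes with a gene-body peak in 4 libraries, and list genes that met the third criterion, with Hdac7 and Tet2. Other genes named with values were chosen after their values were seen. Alternatives were peak width, flank length, merging of peaks within 100 bp, the midpoint rule, stem-loop genes alone, unmerged windows, scaling, the replicate block and each library left out. Nothing states that replicates came from separate mice, so p-values may measure technical spread.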

Additional observations from a re-analysis of the deposited data

How the results depend on the processing

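The share of the histone gene windows under peaks stayed below that of all protein-coding windows in all 14 alternatives run, at 0.631 to 0.840 of it, and those at CpG-rich start sites and in coding sequence stayed at 0.158 to 0.376 and at 0.0870 to 0.197 of their references. The direction of the genotype comparison did not hold. The ratio of peaks was 0.855 with peaks at least 200 bp wide, and 1.02 to 1.09 otherwise. That of peak bases ran from 0.861 to 1.12 when 1 library was left out, above 1 without wild-type replicate 2 (1.12) or HDAC7-deficient replicate 1 (1.02). The body-to-flank ratio was 1.04 with peaks at least 200 bp wide, 1.09 with a flank of 1 kb, 1.09 with each gene on its own, 0.738 with a flank of 10 kb and 0.90 to 1.09 when 1 library was left out, highest without wild-type replicate 2.

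Counts of genes without overlap between genotypes are given with the share of all protein-coding genes that met the same criterion. Leaving out 1 library makes the criterion laxer: 9 to 13 had more peaks (all genes 23.6% to 31.2%), 10 to 13 fewer (20.4% to 31.9%), 14 to 20 more peak bases (18.7% to 33.7%) and 16 to 27 fewer (27.4% to 44.8%, the highest of both without wild-type replicate 1). A gap of at least 2 peaks or 200 peak bases left 1 with more and 1 with fewer peaks (6.94% and 6.14%), and 0 with more and 5 with fewer peak bases (5.11% and 9.78%). More peak bases were seen in 5 genes with peaks at least 200 bp wide (7.86%), in 5 with a flank of 1 kb (10.5%) and in 6 with a flank of 10 kb (9.21%), which also gave 12 with more peaks (12.7%) and 5 with fewer peak bases (17.5%). The coding span, an alternative chosen after seeing the data, gave 1 with more peaks (11.1%). The cause of these shifts was not tested. The replicate block gave ratios of 1.07 for peaks and 0.979 for peak bases (exact sign-flip test, p = 0.5 and 1). That test had 2 values for each measure and cannot give a p below 0.5. Same-numbered libraries share only a number: across the 67 genes their differences correlated at 0.216 for peaks and 0.0202 for peak bases, over genes that are not independent. Leaving out the 7 genes over 50% repeated or taking genes of the 4 member chromosomes alone, both also added later, turned no direction, and without the 7 genes 11 still had more peak bases. By cluster or type, 231 ratios moved under the alternatives by less than the SD between replicates and 21 by more. Depth is unknown, so a missing peak does not show that 5-hmC is absent.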
